A study of Drosophila melanogaster with 2 samples.

Results

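CG6813, a zinc finger protein of Drosophila melanogaster, had 1425 of its 5012 thresholded ChIP-seq peaks (28.4%) at the promoters of protein-coding genes that face no divergent partner. A peak was placed in this set by position alone. Its summit lay within 500 bp of a transcription start site (TSS), the nearest TSS belonged to a protein-coding gene, and no TSS of another gene lay on the opposite strand within 500 bp upstream of it. The set covered 1364 TSSs and 1248 genes. Of the other thresholded peaks, 397 lay at divergent coding promoters, 211 at starts of noncoding genes, 2113 in introns and 866 elsewhere, the last 2 classes more than 500 bp from any TSS.

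The chromatin came from whole embryos of both sexes, 0 to 24 h old, of the strain CG6813-GFP, a stable transgenic line whose CG6813 protein ends in GFP, and was sonicated to 200 to 800 bp and precipitated with an anti-GFP antibody. The study had 1 group and 2 biological replicates, numbered 2 and 3 by the labels, with no second condition, so nothing was compared between treatments. Whole embryos pool many cell types and stages, and a site bound in few cells cannot be told apart from a site bound weakly in many. All embryos carried the tagged protein, and no untagged library was used here.

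A promoter is the DNA around a TSS where the transcription machinery assembles, and in Drosophila many genes lie so close together that 1 stretch of DNA serves 2 genes read in opposite directions. The promoters described here serve a coding gene on 1 side only, so upstream and downstream are defined for each peak. Proteins of the CG6813 family carry a zinc finger-associated domain at the N-terminus, through which such proteins can pair, and C2H2 zinc fingers that bind DNA, and some members of the family act at insulators and at housekeeping promoters.

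The DNA at the peaks is shown for 8 members whose windows of 100 bp on each side of the summit overlap no annotated exon. Among such members on the other arms, the first 4 are the strongest and Trp1 is the strongest that holds a CTCF core sequence. PAN3, Rtnl1 and larp are the strongest further ones with the 7-mer ACAGTGG, chosen after its frequency had been seen. Each sequence is from the RefSeq assembly of dm6, runs 5′ to 3′ on the strand of the gene, is 201 bases long and has the summit in its centre. Capitals mark the CTCF core and ACAGTGG with the pair of overlapping 7-mers given with its frequency, on either strand.
ph-p (chrX:2137225-2137425, minus strand): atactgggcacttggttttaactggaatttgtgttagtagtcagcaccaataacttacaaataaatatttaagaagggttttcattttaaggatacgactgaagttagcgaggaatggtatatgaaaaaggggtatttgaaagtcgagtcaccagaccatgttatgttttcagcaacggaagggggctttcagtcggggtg
Gapdh2 (chrX:15867883-15868083, plus strand): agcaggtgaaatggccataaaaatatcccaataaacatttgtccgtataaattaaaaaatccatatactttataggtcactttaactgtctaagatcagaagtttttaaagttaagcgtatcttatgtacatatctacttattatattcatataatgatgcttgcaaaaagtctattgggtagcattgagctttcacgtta
CG18549 (chr3R:12449078-12449278, plus strand): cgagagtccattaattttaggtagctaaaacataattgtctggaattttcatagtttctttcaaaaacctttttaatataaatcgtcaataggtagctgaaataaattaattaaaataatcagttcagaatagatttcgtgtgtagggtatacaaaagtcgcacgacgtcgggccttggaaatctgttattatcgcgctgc
RluA-1 (chr2L:10474419-10474619, minus strand): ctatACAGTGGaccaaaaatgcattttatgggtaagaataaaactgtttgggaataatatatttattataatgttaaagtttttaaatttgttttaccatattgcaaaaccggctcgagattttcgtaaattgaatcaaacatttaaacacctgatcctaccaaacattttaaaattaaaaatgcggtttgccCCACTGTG
Trp1 (chr2L:10010118-10010318, plus strand): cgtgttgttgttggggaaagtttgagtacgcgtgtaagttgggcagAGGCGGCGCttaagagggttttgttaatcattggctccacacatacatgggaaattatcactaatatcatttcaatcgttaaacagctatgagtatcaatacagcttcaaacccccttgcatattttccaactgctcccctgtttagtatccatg
PAN3 (chr3L:3081311-3081511, plus strand): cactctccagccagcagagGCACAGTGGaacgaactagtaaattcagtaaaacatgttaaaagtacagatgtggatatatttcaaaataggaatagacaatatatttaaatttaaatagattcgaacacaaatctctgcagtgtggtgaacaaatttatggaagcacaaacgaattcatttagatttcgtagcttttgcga
Rtnl1 (chr2L:4997561-4997761, minus strand): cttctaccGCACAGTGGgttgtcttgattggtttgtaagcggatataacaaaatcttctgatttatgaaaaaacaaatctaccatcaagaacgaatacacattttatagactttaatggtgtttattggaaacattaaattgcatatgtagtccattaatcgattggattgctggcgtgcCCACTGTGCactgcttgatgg
larp (chr3R:28326496-28326696, minus strand): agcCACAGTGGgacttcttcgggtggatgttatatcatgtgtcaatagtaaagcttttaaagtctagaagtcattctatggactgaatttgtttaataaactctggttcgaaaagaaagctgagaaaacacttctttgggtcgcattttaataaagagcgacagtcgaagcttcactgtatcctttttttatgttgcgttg

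The peaks of ph-p, Gapdh2 and CG18549, at pooled signals of 2234, 1876 and 1694, held none of the marked sequences. In the RluA-1 window ACAGTGG began at base 5 and its reverse complement at base 194, which put the centres of the sites 93 bp before and 96 bp after the summit. In the Rtnl1 window the sites lay 87 bp before and 83 bp after the summit, and in the PAN3 and larp windows a single site lay 76 and 93 bp before it. All 6 sites read towards the summit.

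Summits lay mostly upstream of the nearest TSS, which can lie inside the gene. The median summit stood 137 bp upstream of the TSS (interquartile range -249 to -10 bp), and 1096 of 1425 (76.9%, exact 95% binomial interval 74.6 to 79.1%) were upstream, 2 at the TSS and 327 downstream. Intervals of shares here and below cover counting error only. At divergent promoters the median was 52 bp upstream and at noncoding starts 60 bp upstream, with 70.5 and 57.8% of summits upstream. In bins of 100 bp the members were most frequent 200 to 100 bp upstream of the TSS, with 339 peaks, and 177 lay in the first 100 bp downstream.

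Signal differed with position in the pooled list and in replicate 2. The signal value is the number the authors' peak caller gave each region, and the labels and files used here do not say how it was scaled. Members 300 to 200 bp upstream had a median pooled signal of 291.8, with 210.8 in replicate 2 and 95.36 in replicate 3, against 209.9, 125.3 and 85.99 for those in the first 100 bp downstream. In replicate 3 the medians of the upstream bins were 80.38 to 95.36, and only that of the bin 300 to 200 bp upstream was above the 85.99 of the first downstream bin. Of the members 300 to 200 bp upstream, 20.6% were among the 500 strongest peaks of the whole list, as were 5.65% of those in the first 100 bp downstream. A small group 400 to 500 bp downstream, 45 peaks, had a median of 293.7.

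**Figure D1:**
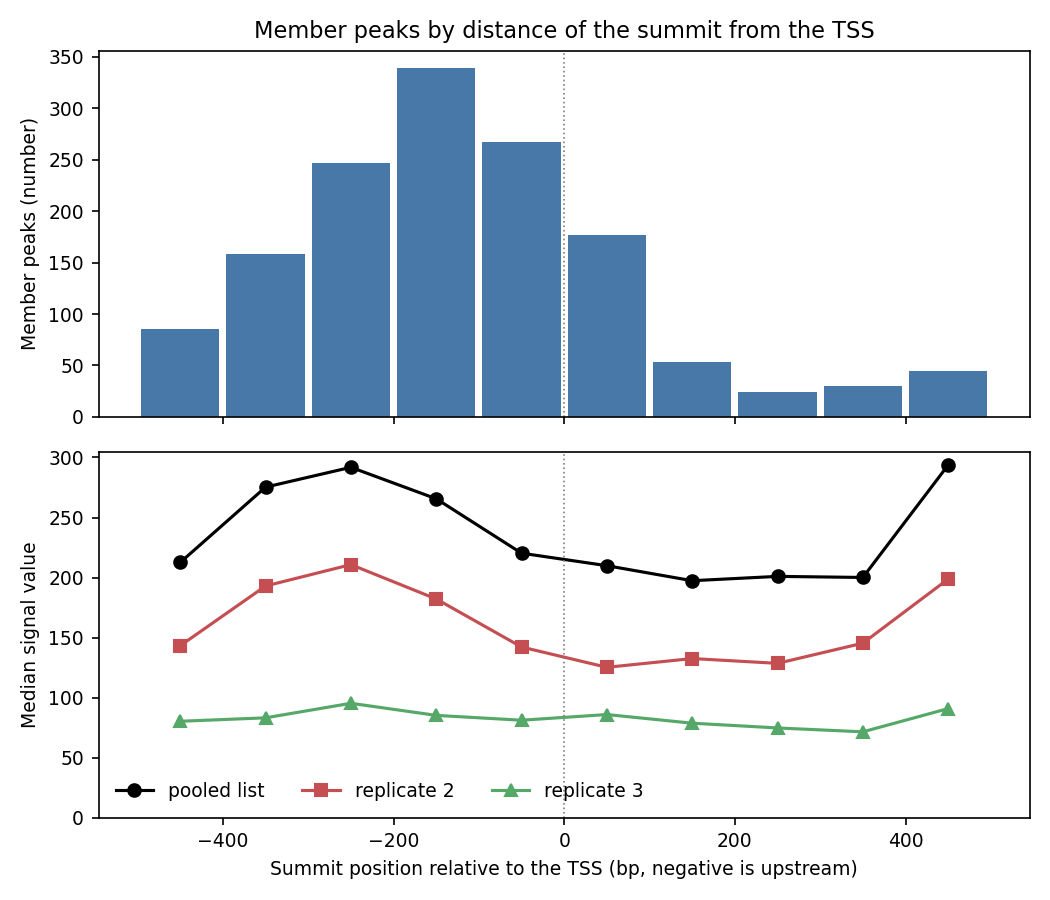
Number of member peaks (upper panel) and their median signal value as deposited (lower panel) by position of the summit relative to the TSS, in 100 bp bins, for the pooled list and both replicates. The bin 200 to 100 bp upstream holds 339 peaks, and the pooled median is 291.8 in the bin 300 to 200 bp upstream.

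By annotation, 555 summits (38.9%) lay between genes, 531 (37.3%) in introns and 339 (23.8%) in exons. At the 500 bp limit of the rule, the members farthest out were those at pAbp and Ptip, 500 bp from the TSS with signals of 271.3 and 240.3, and at CG31523, at 497 bp with 464.9. Just outside stood the peaks at E(spl)m2-BFM (501 bp, 374.0), t-cup (504 bp, 696.1) and CG43901 (504 bp, 197.9). At the limit on divergence, svr, CG5098 and PNPase were kept, with an opposite TSS 502, 505 and 505 bp upstream, and Alp12, Pax and mam were left out at 498, 498 and 496 bp.

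The strongest members lay in AT-rich DNA. Divided by pooled signal into 4 groups of nearly equal size, the members had a median G+C content in the 201 bp window of 35.3% in the strongest group (signal 394.8 to 3734, 356 peaks), 37.3 and 40.5% in the middle ones and 42.8% in the weakest (145.7 to 177.9, 357 peaks). The strongest group also lay farther upstream, with a median of 177 bp and 73.0% of summits over 100 bp upstream, against 91 bp and 47.9% in the weakest. Among members 300 to 100 bp upstream only, the order was kept, with medians of 33.3, 33.8, 37.8 and 39.8% from the strongest to the weakest group. At 12863 non-divergent coding TSSs without a thresholded summit, a window placed at the members' median position had a median G+C content of 38.8%, equal to the 38.8% of all members. Whether base composition bears on the signal through the sequencing or the calling was not tested.

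**Figure D2:**
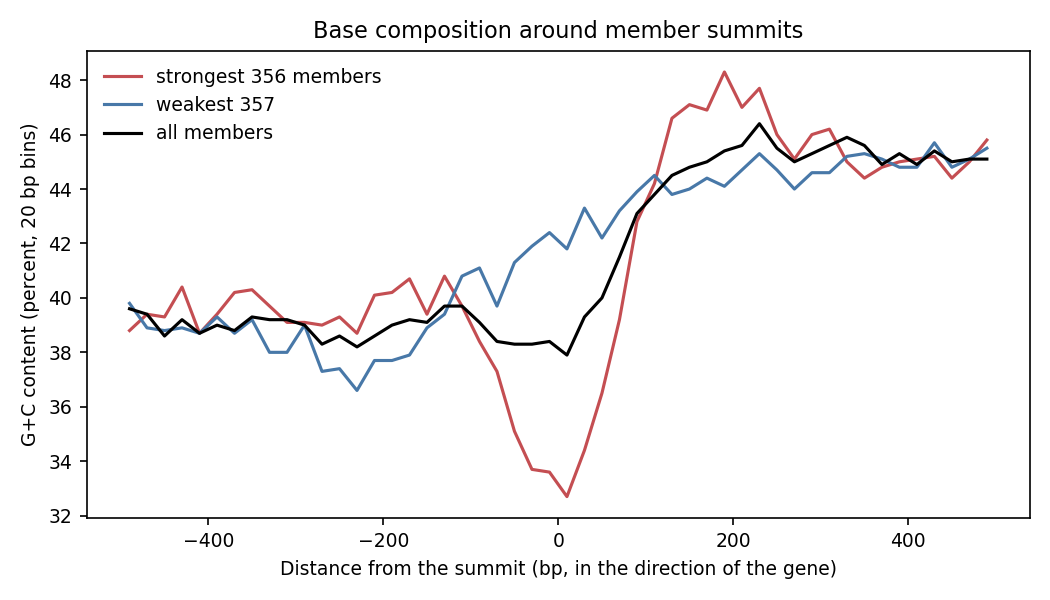
G+C content in 20 bp bins by distance from the summit, oriented so that the gene lies to the right, for the strongest 356 members, the weakest 357 and all 1425. In the strongest 356 it is 32.7% in the first 20 bp after the summit and 48.3% 180 to 200 bp after it, and in the weakest 357 it is 41.8 and 44.1% there.

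The strongest member stood at Ugalt, which encodes a transporter of UDP-galactose into the Golgi, with a summit 27 bp upstream of the TSS. Its signal was 2776 in replicate 2 and 963.0 in replicate 3, rank 1 in each. The member at px, a gene of wing vein patterning, had 2114 and 852.6, and that at CG14100 had 1994 and 699.3. The pooled values of these members were 3734, 2954 and 2701, and the next was 2234.

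The gene ph-p, which encodes a subunit of the Polycomb repressive complex PRC1, had a pair of peaks among the 20 strongest. One lay 470 bp upstream of its nearest TSS, with 1720 in replicate 2 and 564.9 in replicate 3, and the other 410 bp downstream of another TSS, with 1200 and 360.7. The neighbouring ph-d, of the same family, also had 2 member peaks, the stronger with 112.4 and 83.95. Since ph-p and ph-d arose by duplication, reads from their shared sequence may have been placed at either gene, which was not tested.

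Several of the 20 strongest lay at genes of basic metabolism and protein handling. Gapdh2, a glycolytic enzyme, had 1350 in replicate 2 and 521.4 in replicate 3, and PNPase, polynucleotide phosphorylase, had 1643 and 561.6. Hsp83, the Drosophila Hsp90 chaperone, had 1210 and 607.6, and mRpL41, a protein of the mitochondrial ribosome, 1385 and 455.2. Fkbp14, a prolyl isomerase of the endoplasmic reticulum, had 1268 and 421.6. Alg3, a mannosyltransferase that builds N-glycan precursors, had 1081 and 513.8, and RluA-1, a pseudouridine synthase, 1216 and 410.2.

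Genes of signalling and the nervous system were also among them. The gene for, a cGMP-dependent protein kinase known for feeding behaviour, had 1131 and 385.2. A casein kinase I gene, gish, had 1082 and 404.7, and elav, an RNA-binding protein of neurons, 1051 and 405.2. The remaining 5 were CG1888, Tina-1, CG1635, CG18549 and CG31145, with pooled signals of 1529 to 2131. Of the 20, 18 lay upstream of the TSS and all 20 were higher in replicate 2. The lowest rank among them was 46 in the list of replicate 2 and 79 in that of replicate 3.

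**Figure D3:**
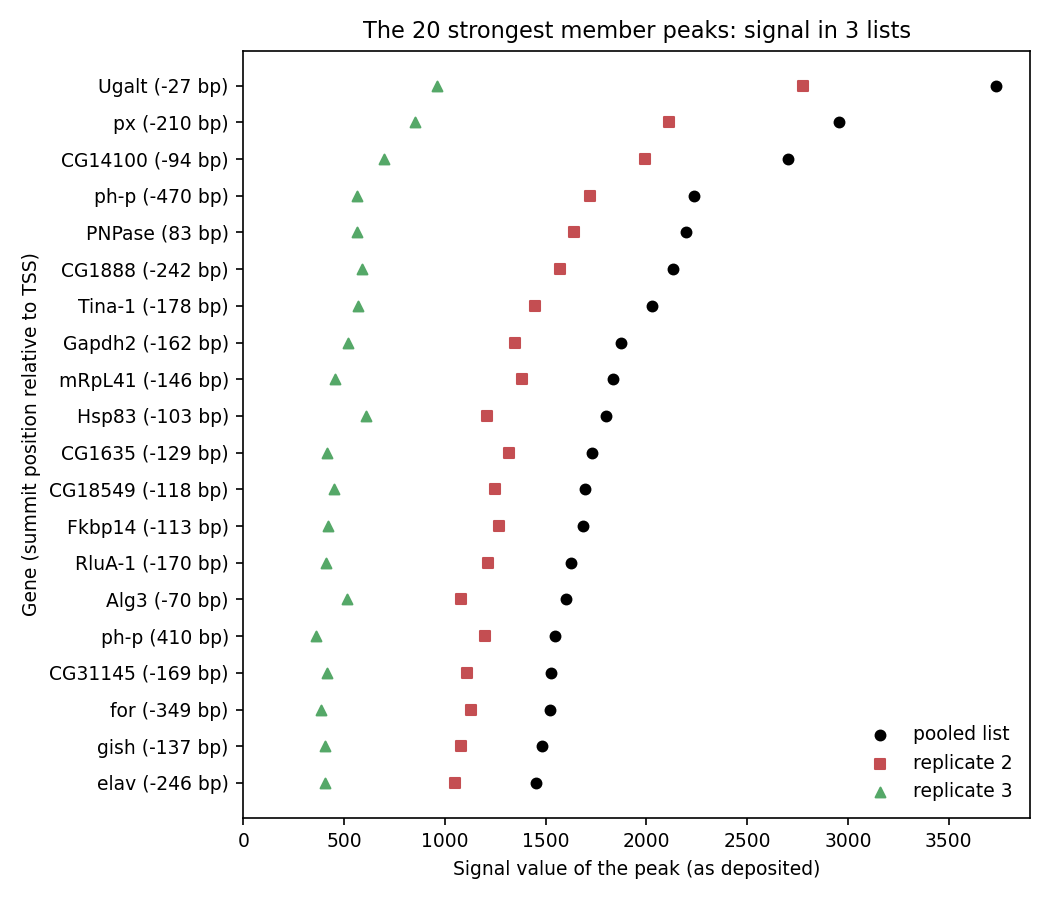
Signal value as deposited of the 20 strongest member peaks in the pooled list and in each replicate, with the position of the summit relative to the TSS in brackets. All 20 are higher in replicate 2 than in replicate 3, and the pooled values run from 1453 to 3734.

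The replicates held nearly all members, on different scales. A region with its summit within 200 bp was present in both replicate lists for 1407 of 1425 members (98.7%). The 18 others had pooled signals of at most 390.8. Members came from a list already filtered by an irreproducible discovery rate step, and each replicate list was much longer than that list. A high share was therefore likely from the start, and it cannot serve as a test of agreement between the replicates. As 1 region could match more than 1 member, some members share a replicate value. The median ratio of replicate 2 to replicate 3 was 2.14 (interquartile range 1.62 to 2.70), and 1332 of the 1407 (94.7%) were higher in replicate 2. The correlation of log2 signal between replicates over these members was 0.768 by Pearson and 0.675 by Spearman, a description, since members were called on the pooled replicates. The ratio was 2.47 in the strongest of the 4 groups by signal and 1.73 in the weakest. Farthest from it were CG1640, with 265.8 in replicate 2 and 21.42 in replicate 3, and on the other side Grx1, a glutaredoxin, with 30.63 and 78.17.

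Members differed little in signal from the other peaks on the median. The medians were 232.9 for members, 252.8 at divergent promoters, 219.3 at noncoding starts, 223.1 in introns and 220.7 elsewhere. On the log2 scale the members' median minus that of divergent promoters was -0.118 in the pooled list, -0.133 in replicate 2 and -0.066 in replicate 3. Minus that of all peaks away from promoters it was 0.069, 0.054 and 0.207. Among the strongest peaks, classes at coding promoters made up larger shares. Members made up 41 of the 100 strongest peaks (41.0%, interval 31.3 to 51.3%) and 195 of the 500 strongest (39.0%, 34.7 to 43.4%), against 28.4% of the whole list. Divergent promoters made up 16 of the 100 and 69 of the 500 (13.8%), against 7.92% of the whole list.

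Of 10653 protein-coding genes with a non-divergent TSS, 1248 (11.7%) had a member peak. These genes were longer and had more TSSs than the others. Their median length was 6776 bp, against 2091 bp for the 9405 others, and 38.9% of them had a single TSS, against 74.1%. The share with a member was 6.52% (interval 5.97 to 7.10%) among genes with 1 TSS, 17.8% with 2, 32.4% with 3 to 4 and 47.0% (39.5 to 54.5%) with 5 to 9. All 9 genes with 10 or more had one. Each TSS is a further chance to meet the rule. At genes with 2 or more TSSs, 345 of 919 members (37.5%, 34.4 to 40.8%) used the most 5′ TSS, close to the 34.7% that such TSSs made up of all.

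A few genes had members at several of their starts. Of the 1248 genes, 1100 had 1 member, 124 had 2, 20 had 3, 3 had 4 and 1 had 5. Rtnl1, a reticulon that shapes the endoplasmic reticulum, had 5 members at 4 of its 7 TSSs, with signals of 215.3 to 1332. PAN3, a subunit of a deadenylase that shortens mRNA tails, had 4 at 4 of 6 TSSs (153.8 to 1386). Ptpmeg2, a protein tyrosine phosphatase, had 4 at 4 of 6 (249.2 to 1102), and sea, a mitochondrial citrate carrier, had 4 at all 3 of its TSSs (183.2 to 587.9).

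The genes with 3 members had roles of several kinds. Eip75B (a nuclear receptor induced by ecdysone), cnc (a stress-response transcription factor) and spi (a ligand of the EGF receptor) were regulators. Pgk is a glycolytic enzyme, dnc a cAMP phosphodiesterase and larp an RNA-binding protein of translation. Svil, shot, nuf, Mhcl and MYPT-75D encode proteins tied to the cytoskeleton or its motors, and ced-6 acts in the engulfment of dying cells. The others were Irk1, a potassium channel, fray, a kinase, kug, an atypical cadherin, and CG14968, CG1888, Reph, drn and sick. Their strongest members ranged from 170.4 at Reph to 2131 at CG1888. Eip75B also held 12 intronic peaks away from its promoters, and Svil and sick 8 each.

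Genes of cytoplasmic ribosomal proteins had members most often among the 18 lists of genes. Of 56 with a non-divergent TSS, 36 had a member (64.3%, interval 50.4 to 76.6%), 21 of the large subunit and 15 of the small, against 11.7% of all such genes. Among genes with 1 TSS the values were 16 of 26 (61.5%, 40.6 to 79.8%) against 6.52%. RpL24 was the strongest, with 641.2 in replicate 2 and 353.0 in replicate 3, followed by RpS4 with 637.3 and 297.1 and RpL11 with 528.8 and 334.6. Over the 36 genes signal ran from 55.46 to 641.2 in replicate 2 (median 290.8) and from 45.21 to 394.3 in replicate 3 (median 152.4). Replicate 2 was higher at 35 of them.

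Their summits lay at the TSS rather than upstream. All 36 fell between 82 bp upstream and 44 bp downstream, with a median of 13 bp upstream, and 33 (91.7%) were within 50 bp of the TSS, against 237 (16.6%) of all members. The window had a median G+C content of 44.3%. The TCT initiator, a polypyrimidine start sequence typical of ribosomal protein genes in flies, searched as CTTT with a pyrimidine on each side, on the sense strand within 10 bp of the TSS, stood at 28 of the 36 promoters (77.8%) and at 51 of the 1328 other member promoters (3.84%). Translation factor genes had members in 6 of 27 cases (22.2%, 8.62 to 42.3%), and this interval includes the 11.7% of all genes. The strongest were eEF1gamma (704.0 in replicate 2, 379.6 in replicate 3), eEF2 (251.7, 152.1) and eEF1alpha1 (286.2, 111.6). These 3 summits lay 31 bp upstream, 12 bp downstream and 38 bp upstream.

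Genes of other large housekeeping complexes were near or below the share of all genes. Members stood at 2 of 20 mitochondrial ribosomal protein genes, 1 of 15 proteasome genes and 3 of 53 genes of the respiratory chain (5.66%, 1.18 to 15.7%). The last were ND-ASHI of complex I (648.2 in replicate 2, 198.2 in replicate 3) and blw and ATPsynC of the ATP synthase (236.4 and 72.86, 79.45 and 110.5). ATPsynC was higher in replicate 3. Among genes with 1 TSS, of which 6.52% had a member, the mitochondrial ribosomal list had 2 of 19 (10.5%, 1.30 to 33.1%). The proteasome list had 1 of 8 (12.5%, 0.316 to 52.7%) and the respiratory chain 1 of 34 (2.94%, 0.0744 to 15.3%). These intervals all include 6.52%.

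Of 5 signalling lists, all short, the Notch, Hippo and growth, and Wnt and Hedgehog lists had intervals above the 11.7% of all genes, and those of the Ras list and of the BMP and JAK/STAT list include it. The Notch pathway, by which neighbouring cells choose fates, had 9 of 23 (39.1%, 19.7 to 61.5%). Its strongest were gro, the Groucho corepressor (512.3 in replicate 2, 195.7 in replicate 3), E(spl)m7-HLH (286.3, 148.5) and E(spl)m3-HLH (289.8, 95.59), both repressors induced by Notch. The receptor gene N had 155.6 and 47.56.

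Hippo and growth control genes had members in 8 of 19 cases (42.1%, 20.3 to 66.5%). They were led by ex, an upstream activator of Hippo (332.3, 114.8), Thor, the 4E-BP translation inhibitor (240.4, 113.2), and foxo, a transcription factor of insulin signalling (235.4, 115.8). Wnt and Hedgehog genes had 6 of 17 (35.3%, 14.2 to 61.7%), led by sgg, the GSK3 kinase (600.8, 255.7), nkd, a Wnt inhibitor (314.7, 117.5), and ptc, the Hedgehog receptor (169.9, 111.9).

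Ras and receptor tyrosine kinase genes had 6 of 21 (28.6%, 11.3 to 52.2%), led by the secreted EGF receptor inhibitor aos (369.9, 166.9), its activating ligand spi (385.5, 132.5) and the ETS factor pnt (197.4, 117.1). The BMP and JAK/STAT list had 4 of 14 (28.6%, 8.39 to 58.1%), among them shn, a zinc finger partner of Mad (602.3, 405.9), Stat92E, the STAT factor (468.1, 370.2), and wit, a BMP receptor (132.2, 71.51). With only the most 5′ TSS of each gene, the BMP and JAK/STAT share was 0.84 times that of all genes, against 2.44 times here. In each of these pairs the first value is replicate 2, and replicate 2 was higher in every one.

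Of the chromatin and cell cycle lists, Polycomb and trithorax genes had 5 of 18 (27.8%, 9.69 to 53.5%), led by ph-p, Trl, which encodes GAGA factor (338.2 in replicate 2, 79.36 in replicate 3), and Psc, a PRC1 subunit (107.6, 98.40). Cell cycle and replication genes had 6 of 24 (25%, 9.77 to 46.7%), led by Dp, the partner of E2F (454.4, 178.7), RnrS, a ribonucleotide reductase subunit (241.9, 97.42), and Mcm2 of the replicative helicase (146.6, 70.17). Heat shock genes had 5 of 24 (20.8%, 7.13 to 42.2%), with Hsp83, Hsp27 (647.5, 262.0) and Hsp26 (244.5, 123.5) the strongest. Splicing factors had 3 of 12: ps, a regulator of alternative splicing (300.2, 148.2), B52, an SR protein (258.3, 101.3), and mub (129.6, 103.3).

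Some families had few members or none. Insulator and architectural genes had 1 of 9, Trl (11.1%, 0.281 to 48.2%). Zinc finger genes of CG6813's own family had 1 of 17, Sry-delta (5.88%, 0.149 to 28.7%). Both intervals include the 11.7% of all genes. The family list held 28 coding genes, and 6 of its symbols were not found in the annotation, so it may not cover the whole family. In the insulator list 4 symbols were not found. Of 115 cuticle protein genes and of 164 chemoreceptor genes none had a member, which allows shares of up to 2.61 and 1.83% by the limit of 3 genes of the total, and of up to 3.16 and 2.22% by the exact two-sided interval. Only 15 and 13 of these genes had any region of the pooled list within 500 bp of a TSS. Among genes with such a region the ribosomal protein share was 73.5% (36 of 49), against 29.8% (28.5 to 31.2%) of all 4183 such genes. Lists with a higher share than all genes include lists of genes with more TSSs, and only the values for single-TSS genes remove that difference. Among single-TSS genes, of which 6.52% had a member, the Notch list had 6 of 18 (33.3%, 13.3 to 59.0%), the Hippo and growth list 4 of 11 (36.4%, 10.9 to 69.2%) and the cell cycle list 4 of 14 (28.6%, 8.39 to 58.1%). The Wnt and Hedgehog list had 3 of 10 (interval 6.67 to 65.2%). The Ras list and the Polycomb and trithorax list had 1 of 8 each, BMP and JAK/STAT 1 of 7, translation factors 1 of 12, heat shock genes 1 of 17 and splicing factors 0 of 7, and the intervals of these last 6 lists include 6.52%.

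**Figure D4:**
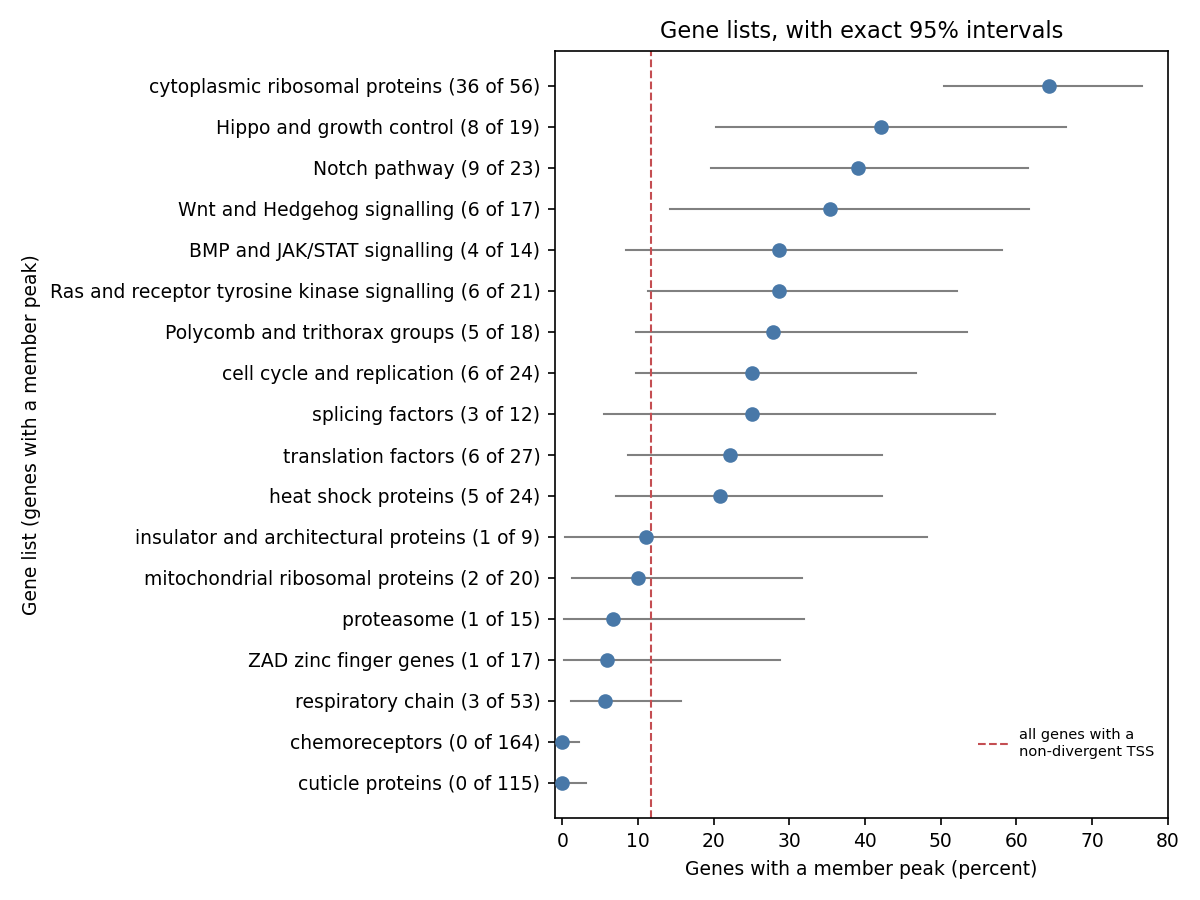
Share of the genes of each list that have a member peak, among those with a non-divergent TSS, with exact 95% binomial intervals. The dashed line is the 11.7% of all 10653 such genes, and cytoplasmic ribosomal protein genes stand at 64.3%.

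Member promoters held GAGA repeats more often and TATA boxes less often than promoters in general. Among 10 sequences searched on both strands from 250 bp before to 50 bp after the TSS, the GAGA repeat (GAGAGAG), bound by GAGA factor and CLAMP, stood at 280 of 1364 member TSSs (20.5%, interval 18.4 to 22.8%), at 8.93% of all 14569 non-divergent coding TSSs and at 14.9% of the 5689 of these with a region of the pooled list. The E-box CAGCTG stood at 19.9% of member and 15.6% of all promoters, and the CA repeat CACACACA at 9.16 and 6.59%. Against promoters with a pooled region both were nearly level, at 18.3 and 8.91%. The DNA replication element (DRE, TATCGATA), bound by Dref and BEAF-32, was at 4.69 and 5.16%.

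The other sequences bound by named factors were rarer or level. The CTCF core, AGGNGGCGC with N any base, stood at 1.17% of member and 0.618% of all promoters (16 and 90 TSSs). Pho (GCCATNTT) was at 5.65 and 5.50%, Zelda (CAGGTAG) at 1.91 and 1.85%, Ohler motif 1 (GGTCACACT) at 3.96 and 3.31%, and Ohler motifs 6 and 7 at 1.39 and 1.20% and at 6.96 and 5.82%. Of the core promoter sequences, searched on the sense strand, the TATA box (TATAAA, 45 to 15 bp before the TSS) stood at 4.40% of member and 9.05% of all promoters, and at 6.50% of those with a pooled region. The initiator (TCAGT, within 10 bp of the TSS) stood at 22.9 and 16.5%, and at 20.7% of those with a pooled region. The TCT initiator stood at 5.79 and 3.16%, and without ribosomal protein genes at the 3.84% given above. None of these sequences contains another.

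In the 201 bp around the summit, members and divergent promoters differed in sequence. GAGA stood in 9.89% of member windows (interval 8.39 to 11.6%) and 1.76% (0.712 to 3.60%) at divergent promoters, with 5.21% in introns. At noncoding starts it stood in 8.53% (5.13 to 13.1%), close to the members' share. DRE stood in 2.46% (1.72 to 3.40%) of member windows and 10.3% (7.51 to 13.7%) at divergent promoters, with 0.237% in introns. Ohler motif 7 stood in 4.21 and 12.8% and Ohler motif 1 in 1.33 and 3.27%. Among members themselves the CA repeat stood in 1.69% of the strongest 356 windows and 12.1% of the weakest 356 (0.621 to 3.63 and 8.88 to 15.9%), and the E-box in 7.30 and 15.4%. GAGA stood in 8.15 and 12.9%, with intervals that overlap.

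Without a motif given in advance, overlapping 7-mers led the list. Of the 574 7-mers found in at least 5% of member windows, joined with their reverse complements, ACAGTGG had the highest ratio to windows 137 bp upstream of TSSs without a thresholded summit, the members' median position. It stood in 112 of 1425 windows (7.86%, interval 6.52 to 9.38%) against 2.35%, a ratio of 3.35. CACAGTG (6.74 against 2.22%) and ACTGTGC (5.96 against 2.03%) followed and overlap it in letters. The next were CAGTGCA (ratio 1.97), ACAGCTG (1.77), which contains the E-box, AGAGCGC (1.76), ACACACG (1.73), CACACTG (1.71), and CACACGC and GTGTTTA (1.67 each). A list ranked this way has a first entry whatever the data, so these shares are descriptions.

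The leading 7-mer was not limited to promoters. It stood in 9.13% of summit windows in introns (7.94 to 10.4%), 7.62% of those elsewhere, 5.29% at divergent promoters and 3.32% at noncoding starts (1.34 to 6.72%). At 3481 pooled regions that lay at non-divergent coding promoters without a thresholded summit it stood in 3.25% (2.68 to 3.89%). Among members it stood in 10.4% of the windows in the strongest of the 4 groups (7.42 to 14.0%), 7.87 and 8.43% in the middle ones and 4.76% in the weakest (2.80 to 7.51%).

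Its sites were most frequent 50 to 100 bp from the summit, and also more frequent within 50 bp of it than far away. Members had 3.16 sites per 100 summits in the 50 bp nearest the summit, 5.89 at 50 to 100 bp, 3.93 at 100 to 150 bp, and 1.50 per 50 bp on average between 500 and 1000 bp. Intronic peaks had 3.60, 7.19, 5.25 and 1.73, and the pooled regions below the threshold 1.90, 1.38, 1.47 and 1.26. Of the 140 sites 50 to 150 bp from a member summit, 120 read as ACAGTGG towards the summit (85.7%, 78.8 to 91.1%), and of 263 at intronic peaks 216 did (82.1%, 77.0 to 86.6%). Of 114 members with such a site, 23 had one on each side, as in the RluA-1 and Rtnl1 windows printed above. No other 7-mer was examined for position or direction.

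**Figure D5:**
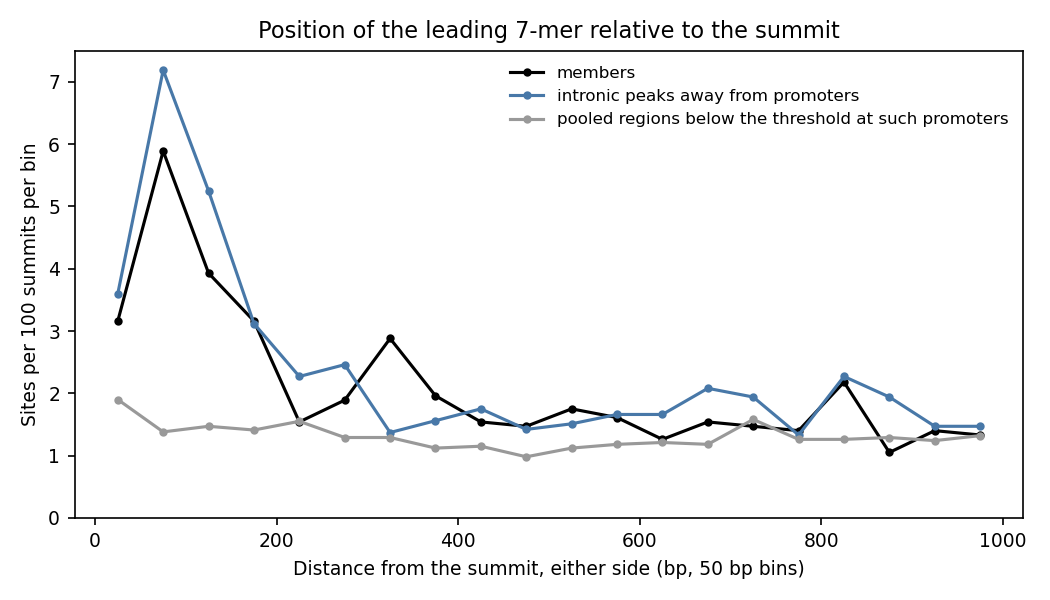
Sites of the leading 7-mer per 100 summits in 50 bp bins of distance from the summit, both sides and both strands joined, for members, intronic peaks and pooled regions below the threshold at the same kind of promoter. Members reach 5.89 and intronic peaks 7.19 in the bin 50 to 100 bp from the summit, while the regions below the threshold have 1.38 there.

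Member promoters had a wider gap to an upstream neighbour on the same strand, and not to one on the opposite strand, than promoters in general. The nearest gene upstream was on the same strand for 616 of 1364 member TSSs (45.2%, interval 42.5 to 47.8%) and for 46.8% of all non-divergent coding TSSs, on the opposite strand for 39.2 and 34.4%, and 15.6 and 18.8% lay inside another gene. For TSSs with a pooled region these shares were 44.3, 39.3 and 16.3%, near those of the members. The gap to a same-strand neighbour had a median of 1058 bp at member TSSs, 763 bp at all and 963.5 bp at those with a pooled region. It was 500 bp or less at 30.5% of the member and 40.0% of all same-strand cases, and at 34.1% of those with a pooled region. The gap to an opposite-strand neighbour had a median of 1672 bp at member TSSs, 1895 bp at all and 1710 bp at those with a pooled region. The nearest other thresholded summit was a median of 3691 bp away, and 22.2% of members had one within 1000 bp, as did 22.4% of intronic peaks.

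Members were spread over the chromosome arms much as the promoters were. X held 254 members (17.8%) and 17.6% of non-divergent coding TSSs, 2L 274 (19.2 and 18.3%), 2R 284 (19.9 and 20.8%), 3L 285, with 19.2% of the TSSs, and 3R 324 (22.7 and 23.2%). The TSS share lay inside the exact interval of the member share on each of these arms. Chromosome 4 held 4 members (0.281%, 0.0765 to 0.717%) and 0.831% of the TSSs, and 1 of the 4 was at RpS3A, with 336.0 in replicate 2 and 220.3 in replicate 3.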

How the data were processed

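ChIP-seq region lists of 2 biological replicates (1 group) were used, each of 30000 regions, with the pooled list of 30000 and the thresholded list of 5012 peaks, all on dm6. Per the deposited file listing, regions were called against a control, and the thresholded list is the optimal set of an irreproducible discovery rate step. The authors deposited a signal value and a summit for each region, and the sources used here give neither aligner and caller nor cutoff and normalization. The lists hold no counts, so depth is unknown, and signal was used only to describe and rank peaks.

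Start sites came from the Ensembl BDGP6 annotation (release 115, 18277 genes without transposable elements, 13968 of them protein-coding), sequence from the RefSeq assembly. The summit decided the class of a peak, with ties between start sites going to the protein-coding gene. Regions of different lists were matched when summits lay within 200 bp. No test was run: peaks of pooled replicates are not independent samples, and shares carry exact 95% (Clopper-Pearson) intervals. An upper limit for a count of 0 is 3 divided by the number of genes. Classification and sequence search were checked on simulated data. Python 3.11.15, numpy 2.4.6, scipy 1.17.1 and matplotlib 3.10.9 were used.

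Members, the 18 gene lists and the 13 sequences were chosen with earlier results of these data known. Sry-alpha and Kah were taken off the zinc finger list after its values had been seen, since they are not known to carry the domain. Kah has a member peak (421.9 in replicate 2, 148.5 in replicate 3), so its removal lowered the count of that list. Named genes are the 20 strongest members with a region in both replicates, the 3 strongest of each list with 3 or more, every gene with 3 or more members, and 3 peaks on each side of each limit. Genes outside this rule (RpS3A, ph-d, N, E(spl)malpha-BFM, CG1640, Grx1, Sry-delta, Kah) and the position and direction of the leading 7-mer were chosen after their values were seen. For printed sequence, windows of ribosomal protein genes were also sought, but each overlapped an annotated exon. The window of the strongest member with a GAGA repeat is not reported here.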

Additional observations from a re-analysis of the deposited data

How the results depend on the processing

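No paired analysis was possible because there is 1 group. Of the ratios to all genes or promoters, 5 of 18 lists and 6 of 13 sequences crossed 1 in at least 1 setting, among them BMP and JAK/STAT (2.44 to 0.84, most 5′ TSS), the respiratory chain (0.48 to 1.26) and Ohler motif 7 (1.20 to 0.94, both against promoters with a pooled region). For each of these 5 lists and 6 sequences the interval of the reported share included the share of all genes or promoters. With summits within 200 bp of the TSS there were 837 members, a median offset of -74.0 bp, 72.4% upstream, a log2 difference from divergent promoters of -0.174, a ribosomal protein share 8.64 times that of all genes (5.49 in the report) and a GAGA ratio of 1.92 (2.30). With 1000 bp, 71.6% lay upstream. Among the 2506 strongest peaks there were 744 members, 81.7% upstream, 99.6% in both replicates, log2 differences of -0.063 from divergent promoters and 0.224 from peaks away from promoters, and a ribosomal ratio of 7.76. Among peaks strong in both replicates 79.1% lay upstream and the ribosomal ratio was 6.64. Using the strongest regions of 1 replicate alone, 72.1 to 79.6% lay upstream, and the difference from divergent promoters was -0.148 to -0.024, smallest without replicate 2. With only the most 5′ TSS of each gene these were 72.9% upstream and a ratio of 7.33. Calling promoters divergent within 200 or 1000 bp gave differences of -0.064 and -0.015 and same-strand neighbours at 37.6 and 52%. Matching regions within 100 or 500 bp gave 93.3 and 99.4% in both replicates. Against promoters with a pooled region, the ribosomal ratio was 2.46 and the GAGA ratio 1.38. The cause of these shifts was not tested beyond the sets named. Depth is unknown, and counting intervals do not cover spread between embryo collections.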
